A study of Homo sapiens with 4 samples.

Results

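The genes described here encode the machinery with which a cell senses bacterial lipopolysaccharide (LPS) and passes the signal on: the receptor complex (TLR4, LY96 and CD14), the adaptors (MYD88, TIRAP and TICAM1), the IRAK kinases (IRAK1, IRAK2 and IRAK3) and the ubiquitin ligase TRAF6. These 10 genes were chosen by name from the known pathway, with earlier results of these data known. All were listed among the 24424 genes of the count tables. RNA was sequenced from BEAS-2B, an immortalised human bronchial epithelial cell line grown in serum-free bronchial medium, after poly(A) selection. Control cells had no treatment, LPS cells had LPS for 2 hr, and WT PDZ+LPS and mut PDZ+LPS cells had a wild-type or a mutant peptide from the first PDZ domain of the tight junction protein ZO-1 for 24 hr before the same LPS. The mutant peptide had 2 glycines changed to alanines, and both peptides carried a TAT stretch for entry into cells. There was 1 library for each condition and none with a peptide but no LPS.

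LPS is handed by the lipid-binding protein LBP and by CD14 to LY96 (also called MD-2), a small secreted protein that sits on the outer part of TLR4 and forms most of the LPS-binding pocket. The receptor then signals along a pair of branches. TIRAP and MYD88 assemble IRAK4, IRAK1 and IRAK2 and activate TRAF6, NF-kB and the inflammatory cytokines, whereas TICAM2 and TICAM1 (also called TRAM and TRIF) lead from internalised TLR4 to TRAF3, TBK1, IRF3 and type I interferon. IRAK3 (also called IRAK-M) is best known as a brake on the MYD88 branch. Airway epithelial cells respond to LPS less readily than macrophages, and in them LY96 is often the scarce component.

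Values are normalized counts, that is, read counts divided by a size factor that puts the 4 libraries on 1 scale. A gene was called changed when it differed by at least 2-fold (1 on the log2 scale) and reached 16 normalized counts in at least 1 of the libraries compared. Without replicates no test between conditions was possible, so no p-value is given. The 95% intervals are exact, hold for counting error only and describe the 2 libraries set side by side, since amplified reads carry no molecular identifiers. The libraries held between 19682929 and 25155647 counts. All 8 epithelial markers examined were expressed, with a sum of 75617 to 107390 normalized counts. Of 10 myeloid markers, 3 (PTPRC, CD163 and TYROBP) had no count in any library and only CD68 was expressed. The sum of the myeloid markers was 316 to 387. Of 6 fibroblast markers, 2 (COL1A1 and PDGFRB) were expressed, and the fibroblast sum was 406 to 567. Of 5 endothelial markers, 1 (KDR) was expressed, and the endothelial sum was 25.8 to 35.3. A trend with transcript length set the mut PDZ+LPS library apart. Spearman's rho across 11751 genes between transcript length and log2 fold change was -0.60 for mut PDZ+LPS/LPS, against 0.07 for WT PDZ+LPS/LPS and 0.15 for LPS/Control. The mut PDZ+LPS differences are therefore given also after a correction for length and GC content, and the cause of the trend was not tested.

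The 3 genes that rose with LPS, described below, were TICAM1, IRAK2 and IRAK3, and the 250 bases before their start sites are shown because these are the stretches nearest to the start of the transcripts that changed. They were taken from RefSeq (GRCh38.p14). The bases are written 5′ to 3′ along the strand of the gene, with the last base next to the start site. Such windows were searched for 8 of the 10 genes, and LY96 and TIRAP were not among them. Capitals mark a match to the kappa B consensus, the 10-base site that NF-kB binds, searched on both strands as 3 G, a purine, any base, A or T, 2 pyrimidines and 2 C.
TICAM1: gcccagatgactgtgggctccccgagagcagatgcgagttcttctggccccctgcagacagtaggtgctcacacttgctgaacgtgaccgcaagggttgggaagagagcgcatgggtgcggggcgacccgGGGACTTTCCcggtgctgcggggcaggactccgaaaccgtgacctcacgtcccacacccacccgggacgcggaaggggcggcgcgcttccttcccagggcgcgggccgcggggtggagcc
IRAK2: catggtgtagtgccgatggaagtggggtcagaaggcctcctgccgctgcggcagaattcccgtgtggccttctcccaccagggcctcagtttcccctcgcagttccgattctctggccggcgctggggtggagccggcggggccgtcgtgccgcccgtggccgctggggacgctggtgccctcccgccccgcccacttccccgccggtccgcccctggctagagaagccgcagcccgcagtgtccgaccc
IRAK3: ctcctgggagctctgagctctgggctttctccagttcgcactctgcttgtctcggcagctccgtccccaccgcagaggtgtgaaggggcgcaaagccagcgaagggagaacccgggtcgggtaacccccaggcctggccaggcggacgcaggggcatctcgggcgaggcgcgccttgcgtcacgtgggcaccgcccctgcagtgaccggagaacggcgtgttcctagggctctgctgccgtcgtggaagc
The TICAM1 stretch lies at chr19:4831713-4831962 on the minus strand, the IRAK2 stretch at chr3:10164669-10164918 on the plus strand and the IRAK3 stretch at chr12:66188964-66189213 on the plus strand. TICAM1 held the kappa B match GGGACTTTCC, from 120 to 111 bases before the start, and it was the only one of the 8 genes with a match in this window. Of 35116 RefSeq windows of the same length, 5.21% held the consensus. IRAK2 and IRAK3 had no match, which says only that these letters were absent from the window. The AP-1 core (TGACTCA or TGAGTCA) was found in 4.2% of the windows and, among the 8 genes, in CD14, 223 to 217 bases before its start. The GC box (GGGCGG or its complement), present in 42.6% of windows, occurred in TLR4, MYD88, TICAM1, IRAK1, IRAK2, IRAK3 and TRAF6, with 4 copies each in MYD88, IRAK1 and IRAK2, of which the last 2 copies in MYD88 and the middle 2 in IRAK2 share 1 base. The CRE core (TGACGTCA) was in 1.65% of windows and in none of the 8.

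Before LPS, 9 of the 10 genes were expressed and LY96 was not. To compare genes with one another, normalized counts were divided by the length in kilobases of the longest protein-coding transcript. In Control the per-kilobase level was highest for IRAK1, at 2670.1 (interval 2621 to 2720), above 96.2% of the expressed genes. MYD88 followed at 296, IRAK3 at 245 and CD14 at 234, all near the middle of the expressed genes. TLR4 stood at 123, TRAF6 at 116, TICAM1 at 113, TIRAP at 77.7 and IRAK2 at 31.5. IRAK3 and CD14, TLR4 and TRAF6, and TRAF6 and TICAM1 were neighbours in this order whose counting intervals overlapped. The order depends on which transcript is expressed, since the longest TLR4 transcript has 12853 bases and the shortest coding one 2955, and those of IRAK3 have 8663 and 1579. With the median transcript length, IRAK3 (1145) and CD14 (500.3) stood above MYD88 (443), and TLR4 stood at 334 in the same place.

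**Figure D1:**
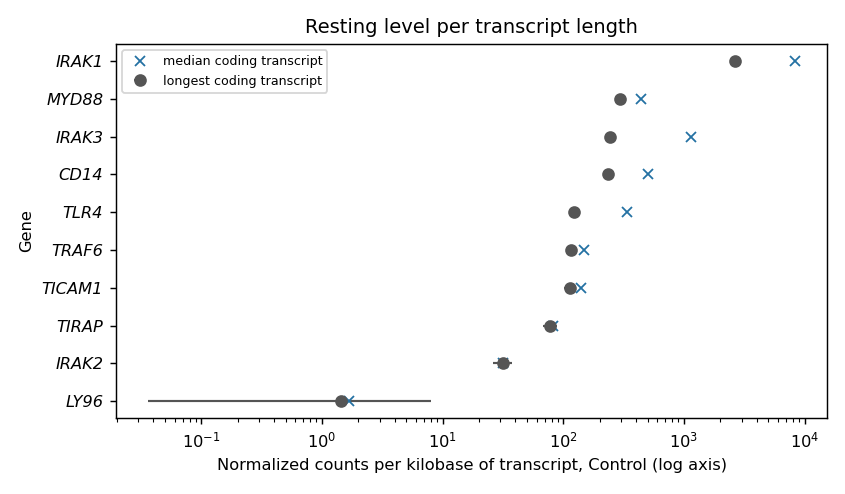
Per-kilobase level of the 10 genes in the Control library, in normalized counts per kilobase of transcript on a log axis. Circles use the longest coding transcript and carry the 95% counting interval, and crosses use the median coding transcript. IRAK1 lies far above the rest at 2670.1 and LY96 far below at 1.43.

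Of the receptor complex, TLR4 and CD14 were expressed in every library. TLR4 had 1582 normalized counts in Control, 1604 after LPS alone, 1680.3 with WT PDZ+LPS and 1174 with mut PDZ+LPS. The first 3 libraries lay close together and mut PDZ+LPS lay below them, but mut PDZ+LPS/Control, at -0.43 on the log2 scale (-0.54 to -0.32), was at 0.05 after the length and GC correction. LPS/Control was 0.02 on the log2 scale (-0.08 to 0.12), so any difference at 2 hr was within counting error.

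LY96, which binds LPS for the receptor, had 1 count in Control and none with LPS alone or with either peptide. Over all 4 libraries this was 1 count among 93108523 (exact Poisson interval 0.0253 to 5.57 counts), beside 6186 counts for TLR4. In Control, the per-kilobase level of TLR4 was 85.9 times that of LY96, with a wide exact interval of 15.4 to 3393 from the single LY96 count. In the libraries at 0, the 0 was taken as 3 counts, which is 2.82 normalized counts after LPS alone, 3.03 with WT PDZ+LPS and 3.52 with mut PDZ+LPS. Per kilobase and against this limit, TLR4 was at least 26.8-fold higher than LY96 after LPS alone, at least 26.2-fold with WT PDZ+LPS and at least 15.7-fold with mut PDZ+LPS. No fold between conditions can be given for LY96, and its RNA was not detectable at this depth beyond the single read.

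CD14, the anchored or secreted protein that passes LPS to LY96, is a macrophage marker that airway epithelial cells can also make. It had 441 normalized counts in Control, 390.4 after LPS alone, 366 with WT PDZ+LPS and 523 with mut PDZ+LPS. The mut PDZ+LPS library was the highest and WT PDZ+LPS the lowest, but mut PDZ+LPS/Control, at 0.24 (0.06 to 0.43), was at -0.02 after correction. LPS/Control was -0.18 (-0.37 to 0.01), within counting error. Per kilobase, CD14 was 163 times LY96 in Control (29.2 to 6458). LBP, the serum carrier of LPS, had 3 counts in Control, 10 after LPS alone, 4 with WT PDZ+LPS and 2 with mut PDZ+LPS, below the expression rule. The defining leukocyte marker PTPRC was at 0 in the libraries where CD14 was counted.

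Among the adaptors, TICAM1 rose with LPS and the adaptors of the MYD88 branch did not. MYD88 had 843 normalized counts in Control, 782 after LPS alone, 741 with WT PDZ+LPS and 759 with mut PDZ+LPS, and LPS/Control was -0.11 (-0.24 to 0.03), within counting error. TIRAP, which brings MYD88 to the membrane, had 171 in Control, 121 after LPS alone, 103 with WT PDZ+LPS and 102 with mut PDZ+LPS. The 3 libraries with LPS were all below Control, but LPS/Control, at -0.49 (-0.82 to -0.16), exceeded counting error without reaching 2-fold.

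TICAM1, the adaptor of the interferon branch, had 303 normalized counts in Control, 642 after LPS alone, 604 with WT PDZ+LPS and 812 with mut PDZ+LPS. Each LPS library lay above Control beyond counting error. The rise with LPS was 2.11-fold, or 1.08 on the log2 scale (0.89 to 1.27), which put TICAM1 at place 417 from the top among 13277 genes. Scaling to total counts moved the median of all genes to -0.13 and TICAM1 to 0.95, just under 2-fold. The per-kilobase ratio of TICAM1 to MYD88 was 0.382 in Control, 0.874 after LPS alone, 0.868 with WT PDZ+LPS and 1.14 with mut PDZ+LPS. With the median transcript length the same ratio was 0.316 in Control and 0.723 in LPS.

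TICAM2, the partner that links TICAM1 to TLR4, is not 1 of the 10 genes. It had 0 counts in Control, 27 after LPS alone, 35 with WT PDZ+LPS and 30 with mut PDZ+LPS, so it was at least 9.73-fold higher in LPS than in Control with the 0 taken as 3 counts. The exact interval starts lower, at 2.88 on the log2 scale. This value is uncertain, because the read-through gene TMED7-TICAM2 shares its sequence and had 354, 210, 183 and 117 counts in the same order. The sum of the 2 symbols was 308 normalized counts in Control, 223 after LPS alone, 220.1 with WT PDZ+LPS and 173 with mut PDZ+LPS, and it was lower, not higher, with LPS.

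**Figure D2:**
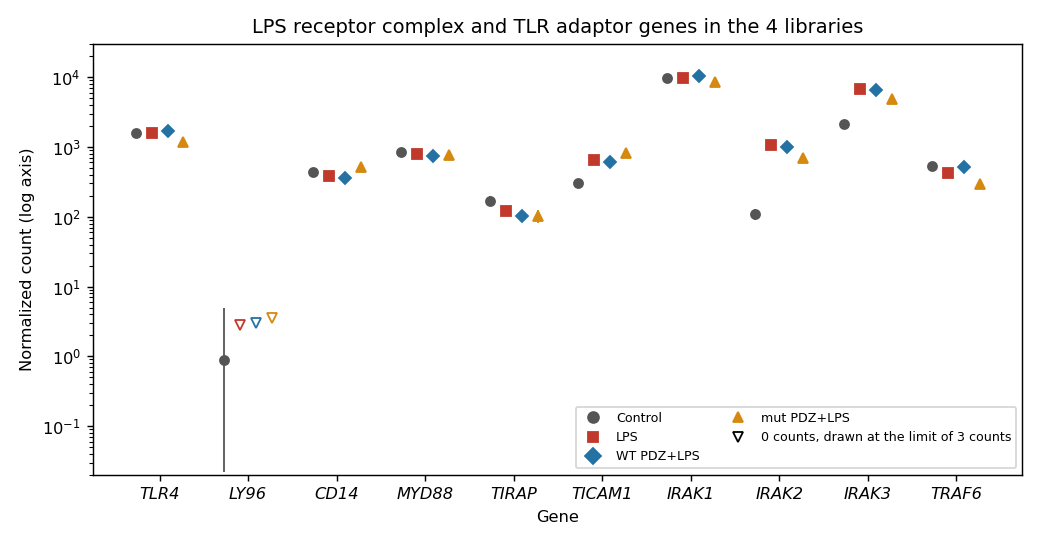
Normalized counts of the 10 genes in the 4 libraries on a log axis, 1 point per library with its 95% counting interval, mostly smaller than the symbol. Open triangles mark libraries with 0 LY96 counts, drawn at the limit of 3 counts. TICAM1, IRAK2 and IRAK3 stand higher in all 3 libraries with LPS than in Control.

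The largest changes with LPS among the 10 genes were those of IRAK2 and IRAK3. IRAK2, a kinase-like partner that joins the complex with MYD88 and IRAK4, had 109.7 normalized counts in Control, 1072 after LPS alone, 1007 with WT PDZ+LPS and 701 with mut PDZ+LPS. Every LPS library was far above Control, and mut PDZ+LPS was the lowest of the 3. The rise with LPS was 9.70-fold, 3.28 on the log2 scale (3.02 to 3.57), at place 66 of 13277 genes.

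IRAK3, the inhibitory member, had 2121 normalized counts in Control, 6883 after LPS alone, 6635 with WT PDZ+LPS and 4875 with mut PDZ+LPS. It rose 3.24-fold with LPS, 1.70 on the log2 scale (1.63 to 1.77), at place 224. IRAK1, the kinase that IRAK4 activates, had 9788 in Control, 9901 after LPS alone, 10442 with WT PDZ+LPS and 8657 with mut PDZ+LPS. Its change with LPS was 0.02 (-0.02 to 0.05), the most tightly bounded of the members because of its high counts. IRAK4, the first kinase of the complex and not 1 of the 10 genes, had 329, 225, 272 and 170 counts in the same order, with LPS/Control at -0.43 (-0.69 to -0.19).

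The make-up of the family at the RNA level shifted accordingly. Of the summed per-kilobase level of IRAK1 to IRAK4, IRAK1 took 88.6% in Control and 70.1% in LPS. IRAK3 went from 8.13% to 20.6% and IRAK2 from 1.04% to 7.99%, while IRAK4 was at 2.22% and 1.28%. The shares in WT PDZ+LPS were 71.8% for IRAK1, 7.29% for IRAK2 and 19.3% for IRAK3, and those in mut PDZ+LPS were 74.4%, 6.35% and 17.7%. These shares were not corrected for the length trend. After correction IRAK3 was at -0.03 and IRAK1 at -0.35 in mut PDZ+LPS/LPS, so the order of the 2 genes' changes turned and the lower IRAK3 share in mut PDZ+LPS rests on the uncorrected counts. With the median transcript length, the share of IRAK3 was 11.8% in Control and 29.5% in LPS and that of IRAK2 0.325% and 2.45%, so the direction was the same and the sizes depended on the transcript.

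**Figure D3:**
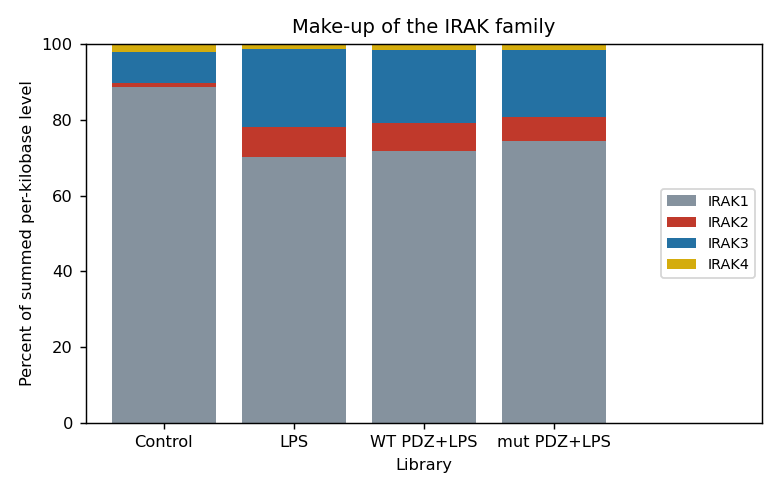
Stacked bars of the percent that IRAK1, IRAK2, IRAK3 and IRAK4 take of their summed per-kilobase level in each of the 4 libraries. IRAK1 falls from 88.6% in Control to 70.1% in LPS, and IRAK2 and IRAK3 take the difference.

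TRAF6, the ubiquitin ligase that IRAK1 and IRAK2 activate, had 538 normalized counts in Control, 430 after LPS alone, 522 with WT PDZ+LPS and 296 with mut PDZ+LPS. Control and WT PDZ+LPS were close together, and mut PDZ+LPS was the lowest. LPS/Control was -0.32 (-0.50 to -0.15), beyond counting error but under 2-fold. TRAF3, the ligase of the interferon branch, had 1336, 2272, 1975 and 1418 counts in the same order and LPS/Control of 0.88 (0.78 to 0.98), also under 2-fold.

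In all, 3 of the 9 expressed genes were called higher in LPS/Control and 0 lower, where 4.87% of the 13277 genes compared were called in either direction, 3.46% higher and 1.41% lower. The median of the 9 genes was 0.02 on the log2 scale and that of all genes was -0.002, since the remaining 6 lay between -0.49 and 0.02. By counting error, 3 of the 9 intervals lay above 0, 2 lay below it and 4 held it. Intervals were not counted in this way over all genes, so these counts have no background to be set against. The same 3 genes were compared with Control in the peptide libraries, which share that Control. TICAM1 was 1.99-fold, just under the threshold, in WT PDZ+LPS/Control and 2.67-fold in mut PDZ+LPS/Control. IRAK2 was 9.11-fold and 6.35-fold, and IRAK3 3.13-fold and 2.30-fold. After the correction the 3 genes were at 1.14, 2.74 and 1.62 on the log2 scale in mut PDZ+LPS/Control. So 2 of 9 genes were called in WT PDZ+LPS/Control, with 4.7% of all genes called, and 3 of 9 in mut PDZ+LPS/Control, with 8.09%.

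The rest of the pathway was described, with earlier results of these data known, by a list of 45 further genes. Of these, 39 were expressed, 11 were called higher with LPS and 0 lower, with a median of 0.19 on the log2 scale. Over all genes compared, 3.46% were called higher and the median was -0.002. The median is the same when TICAM2 is set at its lower bound. Inhibitors, the largest group in the list, made up 7 of the 11, out of 14 inhibitors expressed. TNFAIP3 (A20), which removes ubiquitin chains from TRAF6 and its partners, rose 20.7-fold, its binding partner TNIP1 3.75-fold, ZC3H12A, a nuclease that cuts cytokine mRNAs, 16.8-fold, and NFKBIA, which holds NF-kB in the cytoplasm, 7.88-fold. BCL3, an atypical I-kappa-B protein, rose 2.52-fold and ATF3, a repressor of inflammatory genes, 2.51-fold. IL1RL1, a receptor of the IL-1 family, was called at 2.04-fold from 19 counts in Control and 37 in LPS, with an interval of 0.24 to 1.95 on the log2 scale.

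The other 4 called genes were spread over the pathway. TICAM2 is described above. PELI1, a ubiquitin ligase that modifies IRAK1, rose 2.59-fold, and the other 7 IRAK and TRAF partners were not called. MAP3K8 (TPL2), the kinase that links IKK to ERK, rose 9.52-fold, and the other 7 genes of the TAK1 and IKK complexes lay between -0.04 (IKBKG) and 0.66 (TAB3). IKBKE, a kinase of the interferon branch, rose 3.04-fold, with the other 5 genes of that group between -0.16 (IRF7) and 0.21 (TBK1).

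**Figure D4:**
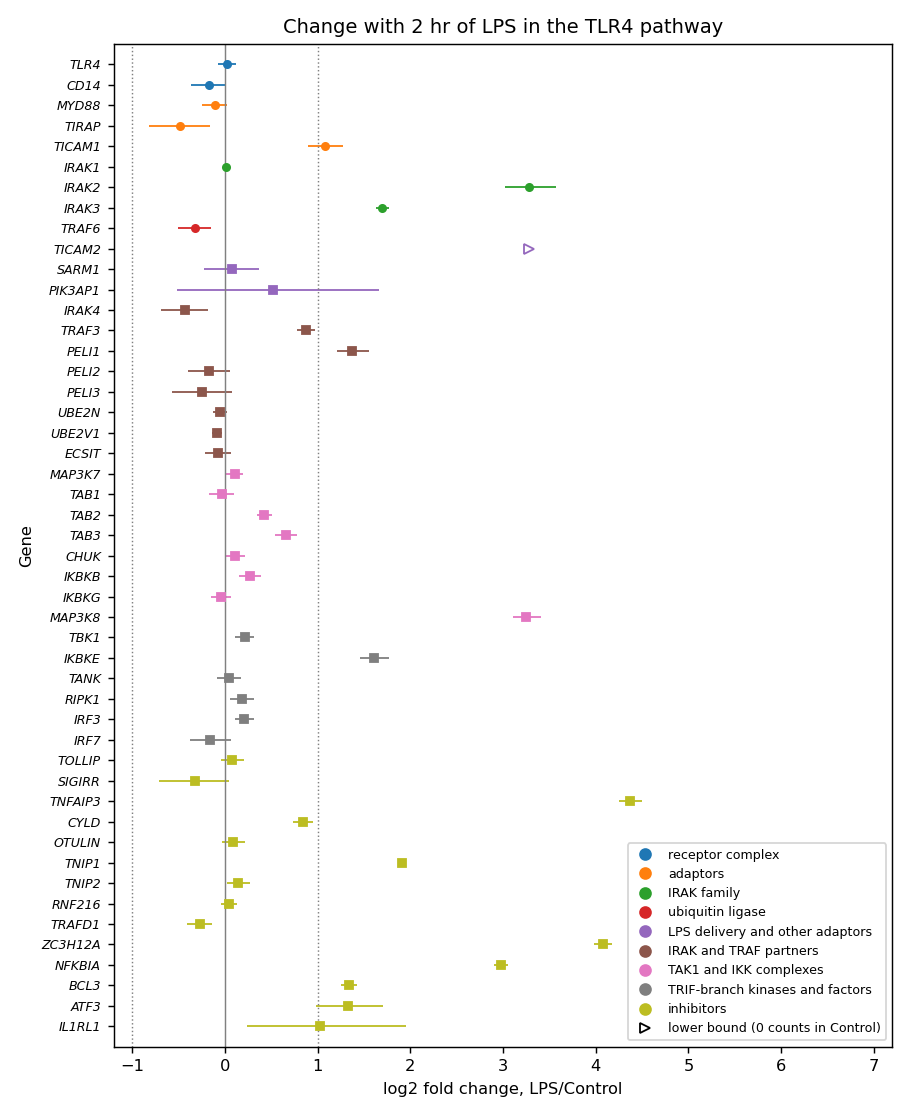
log2 fold change of LPS/Control for the 9 expressed genes described here (circles) and the 39 expressed genes of the wider pathway (squares), coloured by role, with 95% counting intervals. Dotted lines mark 2-fold in either direction, and the open triangle is a lower bound. Every group of the wider pathway holds a called gene, and none lies beyond 2-fold on the lower side. Inhibitors are the most frequent among the called genes and are also the largest group in the list. Of the expressed inhibitors 50% were called, against 12.5% to 33.3% in the other groups of the wider pathway. The list was written with earlier results of these data known.

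TLR2, the receptor for bacterial lipoproteins, was the one other Toll-like receptor that rose, from 240 counts in Control to 2230 in LPS, or about 10-fold. TLR3 and TLR6, the other 2 expressed, were not called. In the IL-1 receptor family, which shares MYD88, IL1RL2 was called at 2.37-fold from 8 counts in Control and 19 in LPS, and IL1R1, IL1RAP and IL18R1 were not called. Downstream, all 9 cytokine and adhesion genes listed for the MYD88 branch were called higher with LPS, among them CXCL8 at 28.7-fold and IL6 at 28.5-fold. Of 8 genes listed for the TICAM1 and interferon branch, 7 were expressed and 2 were called, IFIT3 at 2.17-fold and CXCL10 with 3 counts in Control and 39 in LPS (10.4-fold, 2.16 to 6.15 on the log2 scale). The other expressed genes of this list were not called. IFIT1 was lower with LPS, at -0.76 (-1.04 to -0.50), and ISG15 was at -0.04 (-0.23 to 0.15). IFIH1 was at 0.24, CCL5 at 0.55 and IFIT2 at 0.84. IFNB1 itself had 1 count in LPS and 0 in the other libraries. Over all genes compared, 3.46% were called higher. Both output lists were written with earlier results of these data known, so their counts of called genes do not compare the branches.

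The next comparison asked whether the peptides changed the LPS-sensing machinery in cells given LPS. None of the 9 genes was called in WT PDZ+LPS/LPS, where 1.37% of 13236 genes were, and the median of the 9 was -0.08 against 0.01 for all genes. The values ran from -0.23 for TIRAP (-0.63 to 0.15) to 0.28 for TRAF6 (0.10 to 0.46). TLR4 was at 0.07 (-0.03 to 0.16), TICAM1 at -0.09 (-0.25 to 0.07) and IRAK2 at -0.09 (-0.22 to 0.03). Intervals lay clear of 0 for TRAF6, for IRAK1 at 0.08 (0.04 to 0.12) and for IRAK3 at -0.05 (-0.10 to -0.005), the last 2 being differences of a few percent measured at high counts. For these 9 genes, counting error alone left no room for a 2-fold difference between the libraries. The spread between cultures is not covered by these intervals. None of the 39 expressed pathway genes was called either. The 9 MYD88-branch outputs had a median of -0.19, from -0.71 (IL1B) to -0.01 (CXCL3), with 7 of 9 intervals below 0 and none called. How many intervals lay below 0 over all genes was not counted. Of the receptors and outputs, CXCL10 was the one gene called, at 16 counts with WT PDZ+LPS against 39 without (-1.14, -2.12 to -0.31).

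None of the 9 genes was called in mut PDZ+LPS/LPS, where 3.95% of 13378 genes were. Values against LPS were -0.45 for TLR4, 0.42 for CD14, 0.34 for TICAM1, -0.50 for IRAK3 and -0.54 for TRAF6, all beyond counting error. After the length and GC correction, TLR4 was at 0.12, CD14 at 0.11, TICAM1 at 0.04 and IRAK3 at -0.03, so these 4 moved to near 0. IRAK2 was at -0.61 (-0.76 to -0.47) and stayed at -0.54 after the correction, which is 65.4% of its level in LPS before correction, and TRAF6 went to -0.30. MYD88 at -0.04 (-0.19 to 0.11) and TIRAP at -0.25 (-0.66 to 0.16) were within counting error, and went to -0.10 and -0.42. IRAK1 also moved away from 0, from -0.19 (-0.24 to -0.15) to -0.35. When the correction used the median transcript length, IRAK1 was at -0.63, IRAK2 at -0.44, IRAK3 at -0.43, TRAF6 at -0.24 and TLR4 at -0.05, so the corrected values of IRAK1 and IRAK3 hang on the transcript chosen. None of the 40 expressed pathway genes and none of the 16 expressed outputs was called. The 9 MYD88-branch outputs had a median of 0.34, which was 0.003 after correction. Of the other receptors, IL1RL2 was called lower, at 5 counts with mut PDZ+LPS and 19 without (-1.46, -3.38 to -0.14), and -1.49 after correction.

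**Figure D5:**
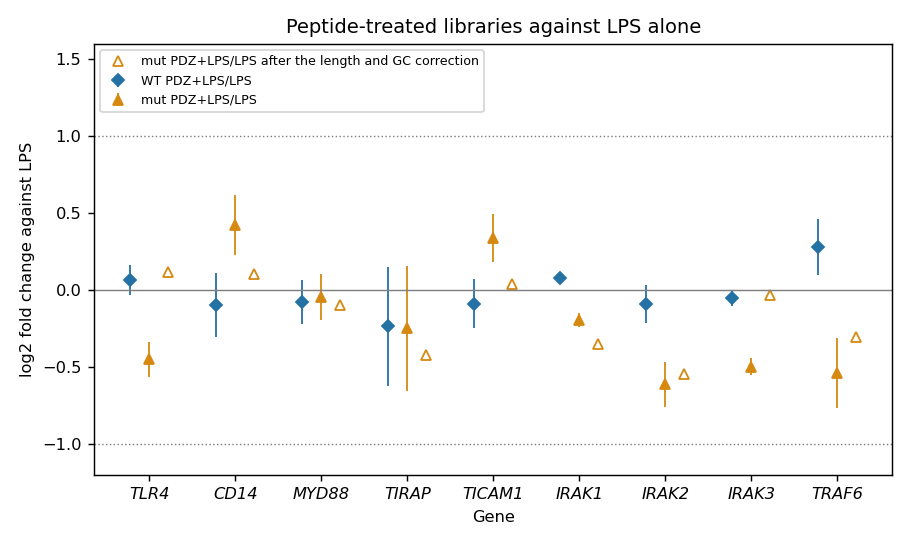
log2 fold change against LPS alone for the 9 expressed genes in WT PDZ+LPS (diamonds) and mut PDZ+LPS (filled triangles), with 95% counting intervals, and for mut PDZ+LPS after the length and GC correction (open triangles). All points lie within the dotted lines at 2-fold. The WT PDZ+LPS points run from -0.23 to 0.28, and for TLR4, CD14, TICAM1 and IRAK3 the corrected mut PDZ+LPS points lie nearer to 0 than the uncorrected ones.

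The peptides differ by 2 residues and were given for the same time before the same LPS. Setting them against each other also carries the length trend, with a Spearman's rho of -0.61 between transcript length and log2 fold change. With 1 library each, a difference between the peptides cannot be told apart from a difference between the libraries. In mut PDZ+LPS/WT PDZ+LPS none of the 9 genes was called, where 4.26% of 13372 genes were. TRAF6 had the largest difference, -0.82 (-1.04 to -0.60), and -0.56 after correction. IRAK2 was at -0.52 (-0.67 to -0.37) and -0.46 after correction. TLR4 was at -0.52 and CD14 at 0.52 before correction, and at 0.11 and 0.19 after it. TICAM1 was at 0.43 and 0.12 after correction, IRAK3 at -0.44 and 0.07, and IRAK1 at -0.27 and -0.42. With the median transcript length the corrected values were -0.37 for IRAK3 and -0.72 for IRAK1, so the sign for IRAK3 after correction depends on the transcript. MYD88 at 0.03 (-0.12 to 0.19; -0.04 after correction) and TIRAP at -0.01 (-0.44 to 0.42; -0.20 after correction) had intervals that held 0, the second a wide one from its low counts. In the wider pathway 1 of 40 expressed genes was called, CHUK (IKK-alpha), with 1554 counts under WT PDZ+LPS and 626 under mut PDZ+LPS (-1.09, -1.23 to -0.96), and -0.96 after correction, where it no longer reached 2-fold.

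The genes with the profile most like each risen member were found by the root-mean-square distance between log2 profiles, centred on their mean, over the 4 libraries. For TICAM1 these were SBNO2 (0.0406), BTG3 (0.0445) and COL5A3 (0.0491). For IRAK2 they were BDKRB2 (0.0440), the bradykinin B2 receptor, SOD2 (0.0790), the mitochondrial superoxide dismutase, and MN1 (0.101). For IRAK3 they were FHDC1 (0.0380), AKAP2 (0.0463) and TBC1D9 (0.0545). BDKRB2 had 129 counts in Control, 1142 after LPS alone, 1061 with WT PDZ+LPS and 646 with mut PDZ+LPS, next to 126, 1140, 997 and 597 for IRAK2. COL5A3 had only 27, 59, 48 and 58 counts in the same order, and FHDC1 had 30, 98, 82 and 53. Counting error is large at such counts, so the places of these genes are uncertain. The profiles rest on 4 points that share the length trend of the mut PDZ+LPS library.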

How the data were processed

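RNA from BEAS-2B cells was sequenced in 4 libraries, 1 per condition, made with a directional kit after poly(A) selection. Per the submitters' processing notes the reads were mapped to hg19 with TopHat, after trimming, and the authors deposited unnormalized read counts per gene symbol for 24424 genes. The counting tool and its strand setting are not given in the sources used here, and the study's methods name FPKM, which was not used. Totals were 24823347 counts in Control, 25155647 after LPS alone, 23446600 with WT PDZ+LPS and 19682929 with mut PDZ+LPS.

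Counts were divided by geometric size factors (1.15, 1.06, 0.990 and 0.851 in that order; DESeq2 1.42.0 method), 1 was added and log2 was taken. The length and GC correction removed lowess trends (span 0.3), first over length and next over GC, both of the longest coding transcript in GENCODE 29, keeping the median. Intervals were 95% exact binomial for ratios and exact Poisson for levels. A count of 0 was taken as 3 counts (the 1-sided limit), and the 2-sided exact limit is somewhat higher. With 1 library per condition no test was run. Steps were tested on simulated data.

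The 10 genes and the lists (45 pathway genes, 14 other receptors and 17 outputs, written from general knowledge) were chosen with earlier results of these data known. Named were the 10 genes, TICAM2, LBP, IRAK4 and TRAF3, every list gene called in LPS/Control or in a peptide library against LPS, and the 3 genes nearest in profile (mean of at least 16) to each risen gene. CHUK, TLR3, TLR6, IL1R1, IL1RAP, IL18R1, IFNB1, IKBKG, TAB3, IRF7, TBK1 and TMED7-TICAM2 were named after their values were seen. So were IFIT1, ISG15, IFIH1, CCL5 and IFIT2. Alternatives were TMM (edgeR 4.0.16) and total-count scaling, a pseudocount of 5, no expression rule or one of 64 normalized counts, fold thresholds of 1.5 and 3, the correction, and exon-union length. The median transcript length and size factors without mut PDZ+LPS were added after the data were seen. Calculations ran in R 4.3.3 and in Python 3.11.15 with scipy 1.17.1, numpy 2.4.6, statsmodels 0.14.6, pandas 2.3.3 and matplotlib 3.10.9.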

Additional observations from a re-analysis of the deposited data

Results flagged for a closer look

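IRAK1 and TRAF6 lay on opposite sides of LPS in the peptide libraries, each beyond counting error. IRAK1 was at 0.0768 on the log2 scale in WT PDZ+LPS/LPS and at -0.194 in mut PDZ+LPS/LPS. TRAF6 was at 0.280 in WT PDZ+LPS/LPS and at -0.536 in mut PDZ+LPS/LPS. After the length and GC correction, IRAK1 was at 0.08 and -0.35 and TRAF6 at 0.27 and -0.30, so the signs were the same. With 1 library per condition the difference between the peptides was not tested. How many of all genes showed such a pattern was not counted.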

How the results depend on the processing

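No fold change reversed its sign in a called gene. Of the 54 member fold changes over the 6 comparisons, all 54 moved by less than counting error with TMM scaling and with a pseudocount of 5, 46 with total-count scaling and 34 with the length and GC correction, with either transcript length. In LPS/Control, total-count scaling put the median gene at -0.13 on the log2 scale and took TICAM1 to 0.95, so 2 members were called there in place of 3. Called members at 1.5-fold were 4 in WT PDZ+LPS/Control (2 at 2-fold), 5 in mut PDZ+LPS/Control (3 at 2-fold), 1 in mut PDZ+LPS/LPS (0 at 2-fold) and 1 for mut PDZ+LPS/WT PDZ+LPS (0 at 2-fold). At 3-fold, 2 members were called in LPS/Control and 1 for mut PDZ+LPS/Control. With the correction TICAM1 passed 2-fold in WT PDZ+LPS/Control, for 3 called members. Of the wider pathway, 7 genes passed 3-fold in LPS/Control, 6 for WT PDZ+LPS/Control and 7 for mut PDZ+LPS/Control, each against 11 at 2-fold, and 17 passed 1.5-fold in mut PDZ+LPS/Control. Against LPS, no pathway gene was called at 2-fold, while 2 were called with WT PDZ+LPS and 1 with mut PDZ+LPS without the expression rule, and 5 in mut PDZ+LPS at 1.5-fold. In mut PDZ+LPS/WT PDZ+LPS, 1 pathway gene at 2-fold became 2 without the expression rule, 6 at 1.5-fold, 0 at 3-fold and 0 after the correction. Shares over all genes are not given at 1.5-fold, at 3-fold or without the expression rule. The counts at these settings therefore show only how the calls depend on the rule. With exon-union length, 6 of the 10 genes held their place in the order of resting levels. Size factors computed without mut PDZ+LPS changed no count of called genes in the 3 comparisons it does not enter. The cause of the length trend was not tested. No paired analysis was possible because each condition had 1 library and the results come from no test. Depth limits LY96, LBP and IFNB1, and 1 library per condition leaves the spread between cultures unknown.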
